A study of Mus musculus with 23 samples.

Results

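The nuclear genes of mitochondrial oxidative phosphorylation were examined on 23 Affymetrix Mouse 430A 2.0 arrays. They comprised the genes whose symbol on the platform starts with Nduf, Uqcr or Atp5, the genes Sdha to Sdhd, and the genes starting with Cox and a digit from 4 to 8, where a probe set named that gene alone. Each gene was read through its probe set with the highest mean log2 intensity over all arrays. This gave 84 of the 12393 genes on the arrays: 33 subunits of complex I, 5 complex I assembly factors, 4 subunits of complex II, 8 of complex III, 17 of complex IV and 17 of complex V. Ndufa4 was placed with complex IV, where it is now assigned. Ndufa11, Ndufb4 and Ndufs6 were measured only by probe sets that also name other genes and were left out.

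The arrays fell into 6 groups. Mouse embryonic fibroblasts (MEFs) came from E13.5 embryos and were wild type, Ezh2-deficient or Snf5 Ezh2-deficient, with 3 arrays per group and a wild-type group named for each mutant. Purified CD8+ T cells of wild-type mice gave 6 arrays and those of Snf5-deficient lymphomas gave 5, the mice being 10 to 15 weeks old. Within the repressive complex PRC2, Ezh2 is the enzyme that methylates histone H3. Snf5 (gene symbol Smarcb1) belongs to the core of the remodelling complex SWI/SNF. The MEF lines were made to ask how both regulators act against each other on gene expression, and the lymphomas to ask which genes are misregulated when Snf5 is lost in tumours. Inactivation was conditional. Which recombinase was used and what drove it was not stated in these sources, and MEFs lacking Snf5 alone were not analysed here.

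Oxidative phosphorylation passes electrons from NADH through complex I, or from succinate through complex II, by way of complexes III and IV to oxygen. Complexes I, III and IV pump protons across the inner mitochondrial membrane, and complex V, the ATP synthase, uses the returning protons to make ATP. Most subunits are encoded in the nucleus and imported, and they are assembled together with a small set of subunits encoded by mitochondrial DNA. Several subunits of complex IV exist as tissue isoforms: Cox7a1, Cox6a2 and Cox8b are the forms of heart and skeletal muscle, Cox6b2 and Cox8c are testis forms, and Cox4i2 is a form of lung.

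The targeted genes followed the labels. Ezh2 read log2 5.63 to 5.81 in Ezh2-deficient and 6.10 to 6.65 in Snf5 Ezh2-deficient MEFs, against 7.81 to 8.07 in wild-type MEFs, and Smarcb1 read 5.64 to 8.67 in the lymphomas against 10.38 to 11.48 in wild-type T cells. The place of the probes relative to the deleted parts was not checked here. The wild-type arrays of both MEF sets were the same hybridisations summarised again, so they were counted once, and both mutant lines are compared with the same control cells. The list of 12 fibroblast markers averaged 11.08 to 11.71 on the MEF arrays, and 9 measured T cell markers of 11 averaged 10.76 to 13.20 on the T cell arrays. The wild-type T cell arrays were uneven: arrays 1 and 6 read 10.73 and 10.59 for Cd8a, against 13.12 to 13.64 on all other T cell arrays, and their B cell list averaged 10.52 and their myeloid list 12.34 to 12.38, against 4.97 to 8.09 and 6.06 to 10.51 on the others. Arrays 1, 2, 5 and 6 read 8.99 to 11.11 for Cd4, against 5.92 to 6.73 on the other T cell arrays. The list of Cd4, Foxp3, Ncr1 and Klrd1 averaged 7.92 to 8.59 on arrays 1, 2, 5 and 6. It averaged 7.51 and 7.56 on arrays 3 and 4 and 4.91 to 5.94 in the lymphomas. Within this list Klrd1 was lower on arrays 1, 2, 5 and 6 (10.74 to 13.08) than on arrays 3 and 4 (13.23 and 13.39). Foxp3 read 5.79 to 6.13 against 6.18 and 6.36, and Ncr1 4.05 to 6.61 against 4.03 and 4.22. The cycling markers of arrays 1, 2, 5 and 6 averaged 10.79 to 11.78, against 8.47 and 8.69 on arrays 3 and 4 and 11.76 to 12.07 in the lymphomas. On arrays 1, 2, 5 and 6 the 4 measured erythroid markers of 7 averaged 7.64 to 8.63, against 5.43 and 5.30 on arrays 3 and 4. Results on T cells are therefore also given without these wild-type arrays. The lymphomas differed among themselves too. Smarcb1 read 8.30, 8.49 and 8.67 on lymphomas 1, 2 and 5 and 5.81 and 5.64 on lymphomas 3 and 4. The erythroid list averaged 6.77, 6.98 and 7.15 on the former and 5.38 and 5.56 on the latter. Cd2 read 7.79, 9.39, 12.27, 6.76 and 7.58 on lymphomas 1 to 5, against 11.58 to 13.66 in wild-type cells. Cd5 read 7.71, 6.46, 11.84, 12.47 and 7.98, against 6.79 to 11.81. All markers of the T cell list overlapped between lymphomas and wild-type cells. Klrd1, outside that list, read 3.83 to 7.27 in lymphomas and 10.74 to 13.39 in wild-type cells. The cause was not tested. In RNA from whole samples, fewer cells of a type and less RNA per cell cannot be told apart. The titles call the samples biological replicates without naming separate cultures or animals, so the spread behind each p-value is that between samples and may be technical.

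The sequences upstream of 6 members are shown. Cox7a1 and Cox6b2 had the largest changes in lymphomas and in Snf5 Ezh2-deficient MEFs, Cox7a2 and Cox6b1 are their broadly expressed counterparts, and Ndufb1 and Ndufaf7 rose in both. Each is the 150 bases just before the annotated RNA start in RefSeq on GRCm38.p6, 5′ to 3′ on the gene's strand, with CG dinucleotides in capitals. Cox7a1 lies at chr7:30184021-30184170 (plus strand), Cox7a2 at chr9:79759854-79760003 (minus), Cox6b2 at chr7:4753095-4753244 (minus), Cox6b1 at chr7:30626115-30626264 (minus), Ndufb1 at chr12:101975739-101975888 (minus) and Ndufaf7 at chr17:78936985-78937134 (plus).
Cox7a1: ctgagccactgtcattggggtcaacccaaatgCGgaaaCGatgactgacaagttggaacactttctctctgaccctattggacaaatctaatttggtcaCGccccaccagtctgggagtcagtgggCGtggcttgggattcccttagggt
Cox7a2: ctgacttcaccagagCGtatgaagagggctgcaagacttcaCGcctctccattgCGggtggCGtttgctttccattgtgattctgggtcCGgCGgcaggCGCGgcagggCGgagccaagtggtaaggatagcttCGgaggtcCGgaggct
Cox6b2: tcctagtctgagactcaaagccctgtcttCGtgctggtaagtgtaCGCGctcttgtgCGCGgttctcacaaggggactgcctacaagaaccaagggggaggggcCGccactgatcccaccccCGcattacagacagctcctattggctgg
Cox6b1: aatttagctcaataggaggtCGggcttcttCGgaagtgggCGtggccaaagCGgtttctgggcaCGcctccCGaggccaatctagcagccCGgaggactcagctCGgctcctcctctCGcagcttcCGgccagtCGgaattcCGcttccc
Ndufb1: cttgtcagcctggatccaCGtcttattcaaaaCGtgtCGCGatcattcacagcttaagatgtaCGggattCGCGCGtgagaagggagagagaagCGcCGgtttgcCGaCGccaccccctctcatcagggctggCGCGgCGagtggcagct
Ndufaf7: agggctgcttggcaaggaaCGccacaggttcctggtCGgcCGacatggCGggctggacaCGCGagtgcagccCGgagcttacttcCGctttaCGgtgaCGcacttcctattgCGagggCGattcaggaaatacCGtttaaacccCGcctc
The muscle isoform Cox7a1 had 4 CG dinucleotides in this stretch and its counterpart Cox7a2 had 11, while Cox6b2 had 7 and Cox6b1 had 12. Ndufb1 had 15 and Ndufaf7 had 14. RefSeq promoters were matched for 70 of the 84 members and for 9882 genes in all. Over the 250 bases before the start, the members held a median of 15 CG dinucleotides and all genes 14. On either strand, GCGCATGCG, a motif of the respiratory regulator NRF1, stood in 8.57% of the members and 2.75% of all genes, and CCGGAAG, a motif of ETS factors, in 18.6% and 12.9%. AAGATGGCG, a motif of YY1, stood in 1.43% of the members and 1.17% of all genes, CCAAT in 40% and 39.8%, and TATAAA in 8.57% and 10.7%. CCGGAAG and AAGATGGCG can overlap by their shared letters AAG, and each was counted on its own. These counts describe letters in the sequence and show no binding.

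The tissue isoforms were followed in every group first, MEF and T cell arrays apart because they were not summarised together. Cox7a1 lay in the lowest 25% of values on all MEF arrays, at log2 4.11 to 4.84, and at 5.10 to 6.48 in wild-type T cells, while the lymphomas read 7.77 to 9.88. Cox6b2 read 7.46 to 7.89 in wild-type and Ezh2-deficient MEFs and 8.47 to 8.91 in Snf5 Ezh2-deficient MEFs. In T cells Cox6b2 ranged from 7.26 to 12.17. Cox8c read 8.49 to 8.94 in MEFs and 5.37 to 6.29 in T cells. Cox4i2 stayed between 6.61 and 6.81 in MEFs and between 5.40 and 6.18 in T cells, Cox6a2 between 6.20 and 6.77 and between 6.89 and 7.55, and Cox8b between 5.64 and 6.01 and between 5.33 and 6.53. Apart from Cox7a1 in the lymphomas and Cox6b2 in the Snf5 Ezh2-deficient MEFs, no isoform passed the test in any of the 3 comparisons.

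**Figure D1:**
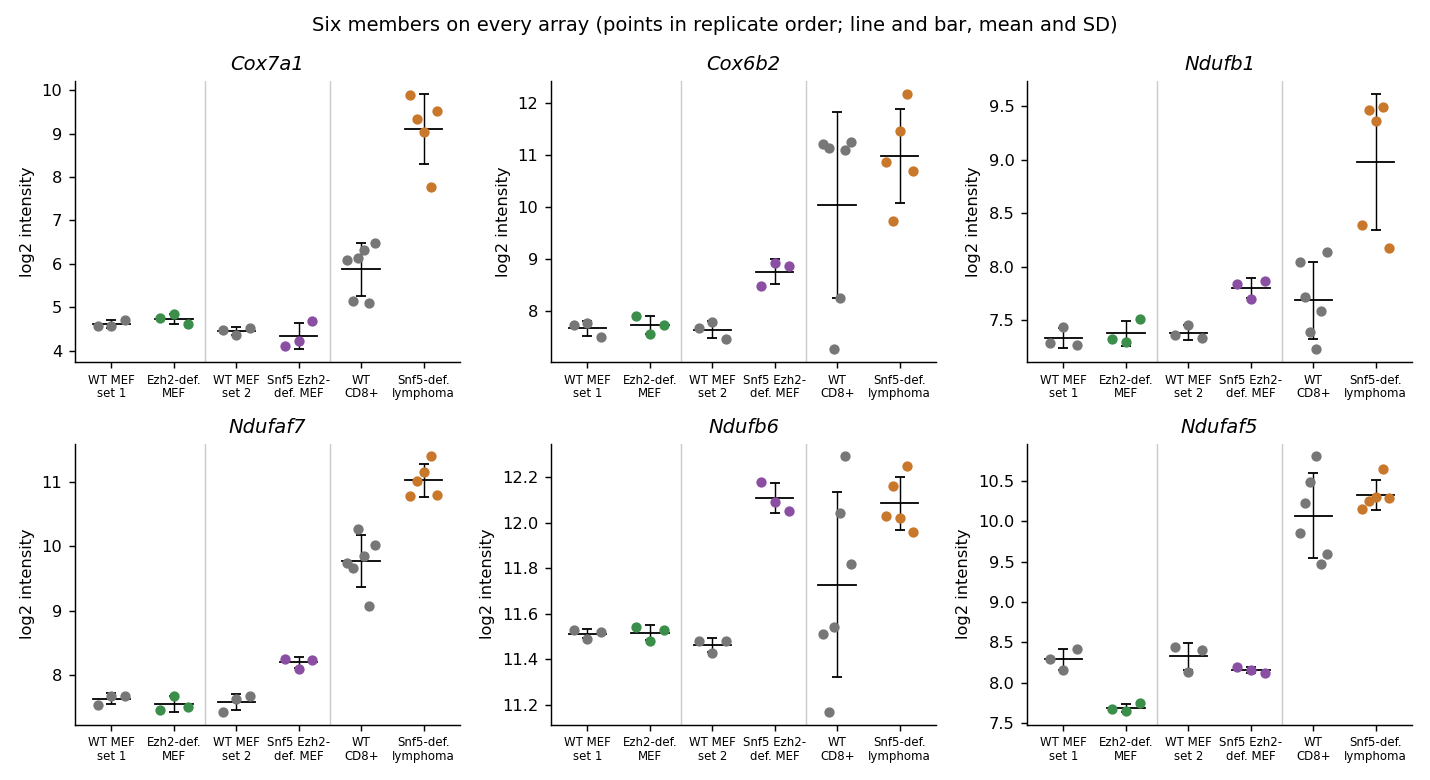
Log2 intensity of 6 members on each array, by group, with points in replicate order and the group mean and SD as line and bar. Cox7a1 reads 7.77 to 9.88 in the lymphomas and at most 6.48 elsewhere, Cox6b2 is higher in Snf5 Ezh2-deficient MEFs and split among the wild-type T cell arrays, and Ndufaf5 is lower in Ezh2-deficient MEFs (7.65 to 7.75).

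Ezh2-deficient MEFs were compared with their wild-type group to ask what the loss of the PRC2 enzyme does to these genes. Ndufaf5 alone fell and 0 of 84 members rose, where 2.47% of all genes were called lower and 1.02% higher, 3.49% in either direction (limma, adjusted p under 0.05 over 22626 probe sets). Ndufaf5, a complex I assembly factor that hydroxylates an arginine of Ndufs7, read 8.30, 8.16 and 8.42 in wild-type and 7.68, 7.65 and 7.75 in Ezh2-deficient MEFs. All mutant arrays lay below all wild-type arrays. The fall was 1.52-fold (log2 -0.60, SE 0.0736, adjusted p = 0.00446), and it passed under all 13 alternatives tried, with changes from -0.68 to -0.55. Without Ezh2-deficient array 2 the number of members called lower was 2.

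The other differences were small and mostly in the same direction. The median log2 change of the members was -0.08, against 0.004 for all genes, and 66 of 84 members lay below 0. At an unadjusted p under 0.05, 19 members were lower and 1 was higher. The groups did not overlap, with the mutant lower, in 35 members, and with the mutant higher in 3, while this held for 17.7% and 15.1% of all genes. The 95% intervals of the members had a median half-width of 0.13, and those of members that did not pass reached 0.54 at most, so larger changes of single members lay outside them.

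By complex, the lower values lay mostly in complexes I, III and V and in the complex I assembly factors. All 5 assembly factors lay below 0 (median -0.16), and 4 read lower without overlap, beside 17.7% of all genes. Only Ndufaf5 of these 5 was called. In complex III all 8 lay below 0 (median -0.09), in complex V 16 of 17 (median -0.10) and in complex I 27 of 33 (median -0.105). The 6 core subunits of complex I, which hold its flavin and iron-sulfur centres, all read lower without overlap, with changes from -0.22 (Ndufs7) to -0.035 (Ndufv2), and 0 of them passed in limma's test. They were singled out after their values were seen. Complex IV had a median of 0, with 9 members above and 8 below 0, and complex II had 2 on each side.

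The member with the smallest p of each complex shows the size of these differences. Ndufb11, a membrane arm subunit of complex I, read 11.12, 11.10 and 11.11 in wild-type and 10.92, 10.97 and 10.93 in mutant cells (log2 -0.17, adjusted p = 0.0967). Atp5a1, the alpha subunit of the ATP synthase head, read 12.50, 12.58 and 12.61 against 12.42, 12.37 and 12.36 (-0.18, adjusted p = 0.0967, or 0.0477 with an intensity-dependent prior and up to 0.552 under the other alternatives). In both genes the mutant arrays lay below all wild-type arrays, and neither passed the threshold as fitted. Sdhd, a membrane anchor of complex II, read 11.27, 11.36 and 11.33 against 11.11, 11.14 and 11.16 (-0.18, adjusted p = 0.129). Uqcr11, a small subunit of complex III, read 10.81, 10.88 and 10.75 against 10.68, 10.63 and 10.70 (-0.14, adjusted p = 0.191). Cox7c, a small subunit of complex IV, went the other way at 5.02, 5.09 and 4.96 against 5.22, 5.18 and 5.47 (0.27, adjusted p = 0.111). Its values lay in the lowest 25% of all MEF arrays, and its second probe set averaged 5.52 over all arrays. Cox6c, another subunit of complex IV, read 12.65 to 12.79 on these arrays. Whether the Cox7c probe sets report its main transcript was not checked. The 8 measured cycling markers of 10 averaged 7.70 to 7.98 in Ezh2-deficient and 8.32 to 8.71 in wild-type MEFs. The part of cycling in the lower values was not tested.

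**Figure D2:**
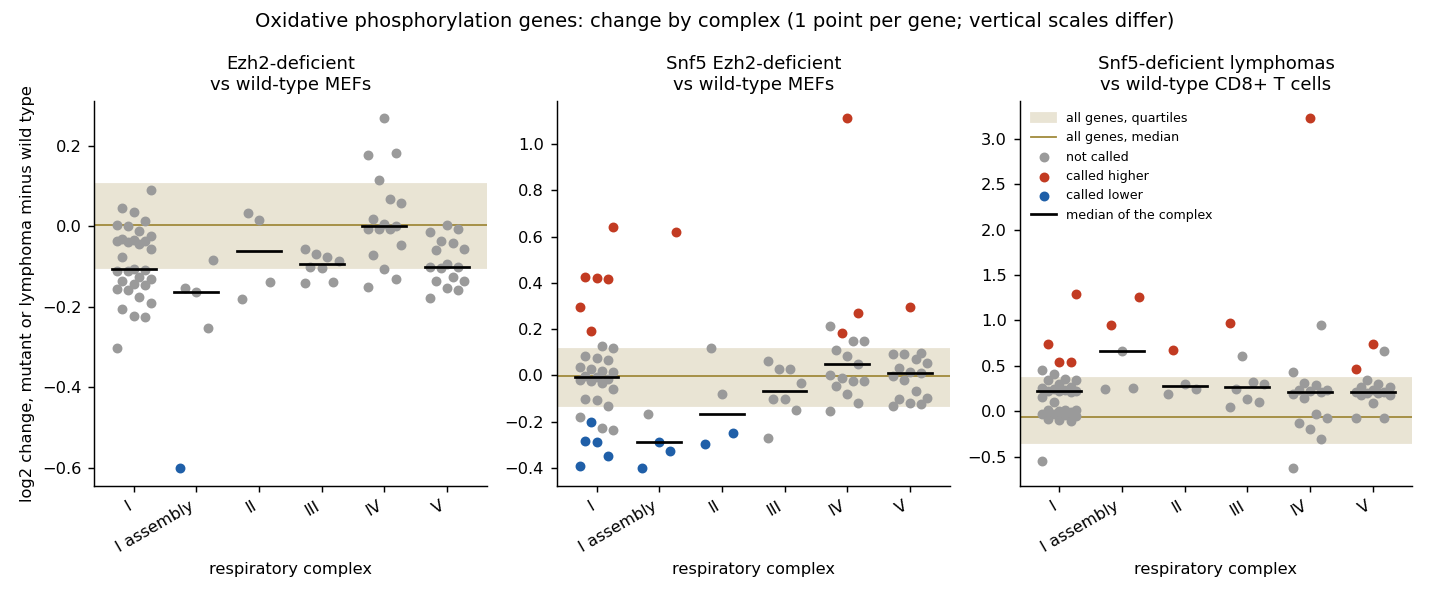
Log2 change of each of the 84 members (1 point per gene, mutant or lymphoma minus wild type) by complex in the 3 comparisons, with the median of each complex as a black line and the quartiles and median of all 12393 genes as a band and line. Called members are red (higher) or blue (lower), and the vertical scales differ between panels. In Ezh2-deficient MEFs 66 members lie below 0 and 1 is called, in Snf5 Ezh2-deficient MEFs 11 are called higher and 10 lower, and in lymphomas 11 are called higher and 0 lower.

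Snf5 Ezh2-deficient MEFs were compared with the wild-type group named for them. Here 11 members rose, 10 fell and 63 did not pass, shares of 13.1% and 11.9% beside 13.2% of all genes called higher and 14.3% called lower. The median change was -0.009, against -0.003 for all genes. The groups did not overlap in 20 members with the mutant higher and 22 with it lower, where 20.6% and 22.6% of all genes were so placed. The counts by complex rest on few genes. Complex IV had 3 of 17 higher (17.6%) and 0 lower, and complex V 1 of 17 higher (5.88%) and 0 lower. Complex I had 6 of 33 higher (18.2%) and 5 lower (15.2%). Complex II had 0 of 4 higher and 2 lower, and the complex I assembly factors 1 of 5 higher and 3 lower. Complex III had 0 of 8 in either direction by limma (at an unadjusted p under 0.05, 0 higher and 1 lower). In complex III, Uqcrc2, a core protein, had the smallest p and read 10.00, 9.80 and 9.90 in wild-type and 9.66, 9.58 and 9.67 in mutant cells (log2 -0.27, adjusted p = 0.0953, or 0.0217 when this set was fitted alone and up to 0.264 under the other alternatives).

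Cox6b2, the testis form of a peripheral subunit of complex IV, had the largest change among the members. It read 7.66, 7.78 and 7.46 in wild-type and 8.47, 8.91 and 8.86 in Snf5 Ezh2-deficient MEFs, with no overlap. The rise was 2.16-fold (log2 1.11, SE 0.129, adjusted p = 0.000182), and the broadly expressed counterpart Cox6b1 read 12.45, 12.40 and 12.43 against 12.34, 12.38 and 12.43 and did not pass. Cox5b, a matrix-side subunit of complex IV, read 12.59, 12.66 and 12.69 against 12.90, 12.88 and 12.97 (0.27, SE 0.0552, adjusted p = 0.00472). Cox8a, a small membrane subunit, read 12.43, 12.50 and 12.49 against 12.65, 12.68 and 12.64 (0.18, SE 0.0568, adjusted p = 0.0391). In both genes all mutant arrays were higher, but the call of Cox8a ended when any 1 of the 6 arrays compared was left out (adjusted p 0.0657 to 0.127). In complex V the single riser was Atp5l, subunit g of the membrane part of ATP synthase, at 11.69, 11.81 and 11.63 against 12.06, 11.98 and 11.97 (0.30, SE 0.0655, adjusted p = 0.00723).

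In complex I the risers were subunits that sit on or in the membrane arm. Ndufb6 read 11.48, 11.43 and 11.48 in wild-type and 12.18, 12.09 and 12.05 in mutant cells, a rise of 1.56-fold (log2 0.64, SE 0.0563, adjusted p = 3.3e-05). Its second probe set rose as well (0.78, adjusted p = 1.4e-05). Ndufb2 read 10.96, 10.88 and 10.98 against 11.35, 11.32 and 11.45 (0.43, adjusted p = 0.000455). Ndufa13, also known as GRIM-19, read 11.19 on all 3 wild-type arrays and 11.46, 11.65 and 11.71 in the mutant (0.42, adjusted p = 0.00179). Every mutant array of these 3 genes lay above every wild-type array. Outside the rule for named genes, Ndufb1 (0.42), Ndufc2 (0.30) and Ndufa8 (0.19) rose too, and of these Ndufa8 lost its call without any of the wild-type arrays or without mutant array 1 or 3 (adjusted p 0.0581 to 0.0881).

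The subunits of complex I that fell came from both arms. Ndufa5, of the peripheral arm, read 9.12, 9.22 and 9.01 in wild-type and 8.64, 8.62 and 8.92 in mutant cells (log2 -0.39, SE 0.104, adjusted p = 0.0191), and its second probe set fell by 0.28. Ndufa1, encoded on the X chromosome and needed for assembly of the membrane arm, read 12.12, 12.18 and 12.09 against 11.77, 11.70 and 11.88 (-0.35, adjusted p = 0.00215). Ndufa3 read 11.47, 11.53 and 11.49 against 11.13, 11.22 and 11.28 (-0.29, adjusted p = 0.00495). The groups did not overlap in any of these 3 genes. Ndufs4, an accessory subunit beside the NADH-binding part, changed by -0.28 and Ndufs1, a core iron-sulfur subunit, by -0.20, both outside the rule for named genes. The call of Ndufa5 ended without wild-type array 1 or 2 or mutant array 1 or 2 (adjusted p 0.0597 to 0.074), that of Ndufs4 without wild-type array 2 or 3 or mutant array 1 or 2 (0.0681 to 0.0788) and that of Ndufs1 without any wild-type array or mutant array 2 or 3 (0.0803 to 0.15). With the mean of its probe sets Ndufs4 differed by -0.151 (adjusted p = 0.101), and Ndufs1 lost its call with quantile normalization (0.0822) and with this set fitted alone (0.06).

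The assembly factors of complex I moved in both directions. Ndufaf7, a methyltransferase that acts early in assembly, read 7.43, 7.63 and 7.67 in wild-type and 8.25, 8.10 and 8.24 in Snf5 Ezh2-deficient MEFs, a rise of 1.54-fold (log2 0.62, SE 0.0814, adjusted p = 0.000368). Ndufaf3 and Ndufaf4, which act together on the part of complex I that binds ubiquinone, both fell. Ndufaf3 read 8.07, 8.16 and 8.11 against 7.80, 7.58 and 7.76 (-0.40, adjusted p = 0.00517). Ndufaf4 read 9.18, 9.13 and 9.16 against 8.89, 8.70 and 9.02 (-0.29, adjusted p = 0.0188), and without wild-type array 1 its adjusted p was 0.0665, the highest of its alternatives (the lowest was 0.0061). Ndufaf1, which acts on a membrane arm intermediate, read 8.21, 8.14 and 8.27 against 7.81, 7.82 and 8.00 (-0.33, adjusted p = 0.00506). In these 4 genes no mutant array lay within the wild-type range. Ndufaf5, the gene that fell in Ezh2-deficient MEFs, read 8.44, 8.14 and 8.41 against 8.20, 8.16 and 8.12 (-0.17, adjusted p = 0.128), with overlap.

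In complex II, succinate dehydrogenase, the iron-sulfur subunit Sdhb and the membrane anchor Sdhd fell. Sdhb read 11.24, 11.25 and 11.23 in wild-type and 10.96, 10.86 and 11.01 in mutant cells (log2 -0.30, SE 0.0569, adjusted p = 0.00326). Sdhd read 11.20, 11.31 and 11.24 against 11.10, 10.93 and 10.96 (-0.25, adjusted p = 0.0141), and without wild-type array 2 its adjusted p was 0.058, the highest of its alternatives (the lowest was 0.00673). Both genes were lower on all mutant arrays. Sdha, the flavoprotein, read 10.65, 10.66 and 10.71 against 10.66, 10.51 and 10.60, and the second anchor Sdhc read 10.13, 10.36 and 10.42 against 10.39, 10.36 and 10.52. Both overlapped between the groups and did not pass.

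The 2 mutant lines were set against each other to test whether their changes differed, a contrast that leaves out the error of bringing both sets to a common scale. In 18 members the value was higher in Snf5 Ezh2-deficient than in Ezh2-deficient MEFs, and in 2 it was lower, where 16.3% of all genes were called higher and 13.6% lower. The largest differences were those of Cox6b2 (log2 1.05, adjusted p = 0.000255), Ndufaf7 (0.70, adjusted p = 0.00018) and Ndufb6 (0.64, adjusted p = 3.8e-05). Ndufaf5 also differed (0.43, adjusted p = 0.00181). The lower members were Ndufa1 (-0.22, adjusted p = 0.0226) and Ndufa3 (-0.21, adjusted p = 0.0241). Their number was 0 without Snf5 Ezh2-deficient array 1, 5 without array 3 of that group, and 1 without Ezh2-deficient array 1 or 3. The cycling markers averaged 8.30 to 8.64 in Snf5 Ezh2-deficient and 7.70 to 7.98 in Ezh2-deficient MEFs, each as summarised in its own set. The part of cycling in the differences between the lines was not tested.

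The median over the members was also taken on each array. Relative to the wild-type mean, it was -0.08, -0.06 and -0.08 on the Ezh2-deficient arrays and -0.02, 0.02 and 0.003 on their wild-type arrays, so these groups did not overlap. On the Snf5 Ezh2-deficient arrays it was -0.02, -0.045 and 0.021, overlapping the wild-type values of -0.02 to 0.014. The lymphomas lay between 0.16 and 0.31 and the wild-type T cells between -0.30 and 0.28, with wild-type array 4 (0.28) inside the range of the lymphomas and array 5 (-0.30) the lowest. Over all genes the same median ranged from -0.027 to 0.015 on MEF arrays and from -0.14 to 0.082 on those of T cells.

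**Figure D3:**
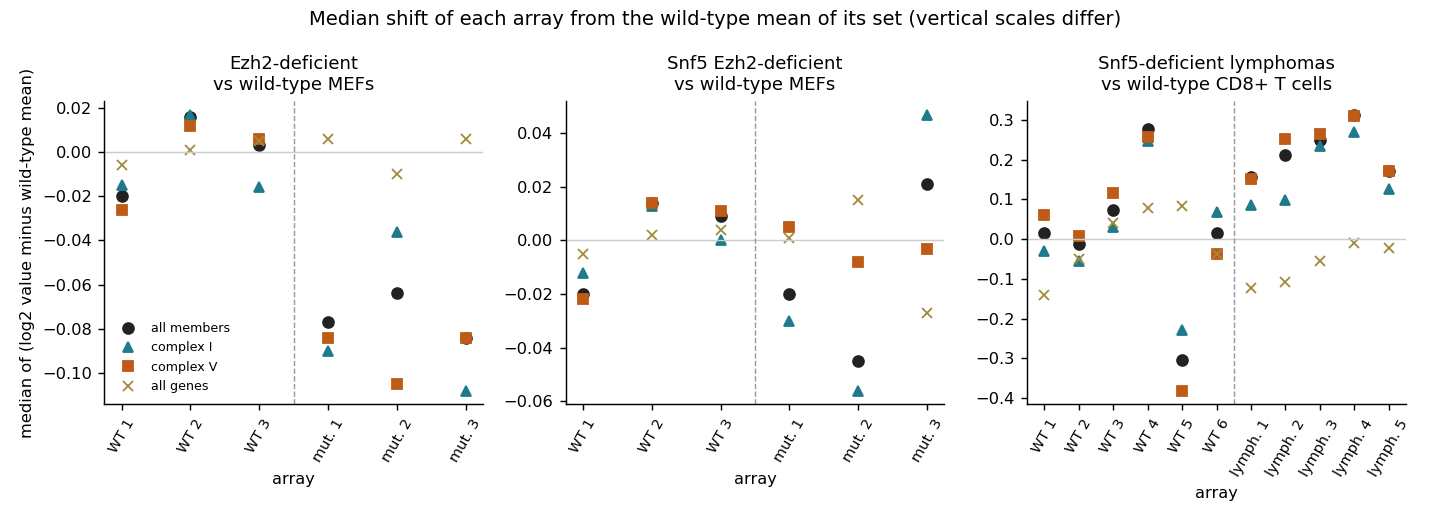
Median over genes of the log2 value minus the wild-type mean of the set, per array, for all members, complex I, complex V and all genes, with a dashed line between wild-type and mutant or lymphoma arrays. The Ezh2-deficient arrays (-0.08, -0.06 and -0.08) lie below their wild-type arrays, and wild-type T cell array 4 (0.28) lies among the lymphomas (0.16 to 0.31).

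CD8+ cells of Snf5-deficient lymphomas were compared with wild-type CD8+ T cells. Here 11 members rose, 0 fell and 73 did not pass, where 9.13% of all genes were called higher and 7.71% lower. At an unadjusted p under 0.05, 20 members were higher and 1 was lower. The median change was 0.23 over the members, against -0.07 over all genes, and 66 of 84 members lay above 0, among them all 8 of complex III, all 4 of complex II and 15 of 17 of complex V. The groups did not overlap, with the lymphomas higher, in 12 members, and with the lymphomas lower in 0 (7.09% and 5.7% of all genes). The 95% intervals of the members had a median half-width of 0.34, against 0.13 in MEFs. The part that B cells, myeloid cells, erythroid cells and cycling on wild-type arrays 1, 2, 5 and 6 had in these differences was not tested. Nor was that of the differences among the lymphomas.

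Cox7a1, the heart and muscle form of a small complex IV subunit, changed most. The 6 wild-type arrays read 6.10, 5.14, 6.13, 6.33, 5.10 and 6.48, and the lymphomas read 9.88, 9.34, 9.03, 7.77 and 9.51, so the lowest lymphoma lay above the highest wild-type array. The rise was 9.36-fold (log2 3.23, SE 0.393, 95% interval 2.36 to 4.09, adjusted p = 0.000563), and since wild-type arrays 2 and 5 lay in the lowest 25% of values, it is a fold over values near the floor. It passed under all alternatives tried, with changes from 2.88 to 3.56. The broadly expressed counterpart Cox7a2 read 13.36 to 14.04 (median 13.92) in wild-type cells and 13.98 to 14.11 (median 14.04) in lymphomas and did not pass (0.19, adjusted p = 0.392). The other muscle isoforms did not pass either, with Cox6a2 at -0.08 and Cox8b at -0.03, and the list of 11 striated muscle markers averaged 5.83 to 6.00 in lymphomas and 4.96 to 6.00 in wild-type cells. Of these markers, Myl1, a myosin light chain of fast muscle, read 8.66 to 10.52 in lymphomas and 4.73 to 5.58 in wild-type cells (log2 4.55, SE 0.344, adjusted p = 3.1e-05), and all others overlapped between the groups. The part of muscle-type expression in the level of Cox7a1 was not tested.

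Cox6b2 split the wild-type arrays. It read 11.20, 11.12, 11.08 and 11.25 on arrays 1, 2, 5 and 6 and 7.26 and 8.25 on arrays 3 and 4, while the lymphomas read 10.86, 9.73, 11.45, 12.17 and 10.68. Against all 6 wild-type arrays the difference was 0.95 (SE 0.802, adjusted p = 0.449), with an interval from -0.81 to 2.72. The 4 high arrays are those with high Cd4 and high cycling markers. They were also higher in the erythroid list (7.64 to 8.63, against 5.43 and 5.30 on arrays 3 and 4). The same held for the myeloid list (7.68 to 12.38, against 6.06 and 6.26). Against arrays 3 and 4 alone, a choice made after the values were seen, Cox6b2 was higher in the lymphomas by 3.22 (SE 0.623, adjusted p = 0.0114). The part of other cells or of cycling in these levels was not tested.

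**Figure D4:**
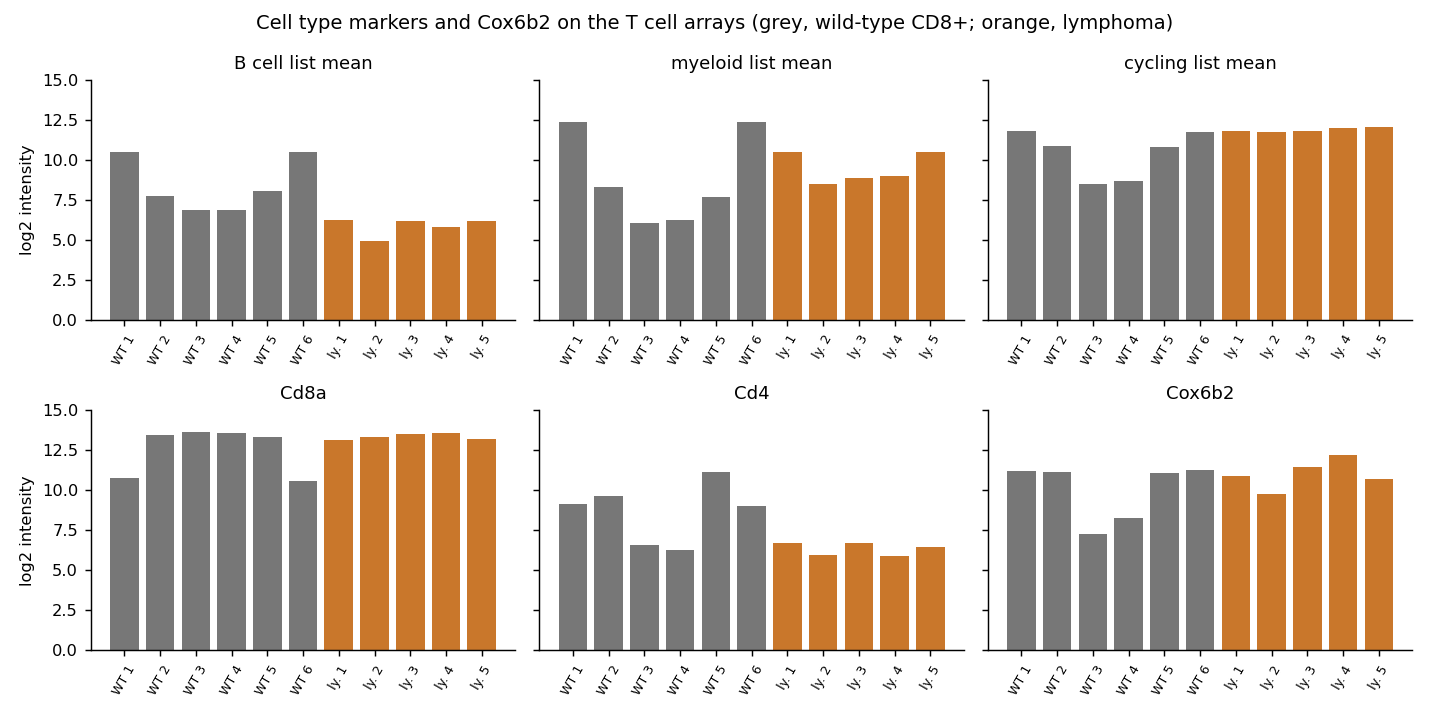
Log2 intensity on the 11 T cell arrays (grey bars wild-type CD8+, orange bars lymphoma) of the means of the B cell, myeloid and cycling marker lists and of Cd8a, Cd4 and Cox6b2. Wild-type arrays 1 and 6 are low for Cd8a (10.73 and 10.59), and arrays 3 and 4 are low for the cycling list (8.47 and 8.69) and for Cox6b2 (7.26 and 8.25).

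In complex I and its assembly factors 6 members rose. Ndufb1, a small membrane arm subunit, read 7.23 to 8.14 (median 7.66) in wild-type cells and 8.39, 9.47, 9.36, 9.49 and 8.18 in lymphomas, without overlap (log2 1.30, SE 0.288, adjusted p = 0.0124). Ndufab1, the mitochondrial acyl carrier protein, which also serves fatty acid synthesis and iron-sulfur cluster assembly, read 11.12 to 11.60 (median 11.33) against 11.96, 12.15, 11.95, 12.15 and 12.15 (0.74, SE 0.128, adjusted p = 0.00369). With the mean of its 3 probe sets in place of the brightest the adjusted p of Ndufab1 was 0.0763, the highest of its alternatives (the lowest was 0.00247). Ndufaf7 read 9.07 to 10.27 (median 9.80) in wild-type cells and 10.79, 11.02, 11.16, 11.40 and 10.80 in lymphomas (1.26, SE 0.21, adjusted p = 0.00283), and it passed under all alternatives tried, as did Ndufb1. For all 3 genes every lymphoma array lay above every wild-type array.

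The other risers of complex I were less firm. Ndufaf3 read 9.49 to 10.97 (median 10.43) in wild-type cells and 11.12, 11.19, 11.20, 11.57 and 11.21 in lymphomas (log2 0.95, SE 0.243, adjusted p = 0.0236). Ndufb8, a membrane arm subunit, read 11.77 to 12.48 (median 12.00) against 12.81, 12.74, 12.44, 12.57 and 12.37 (0.55, SE 0.164, adjusted p = 0.0458). Ndufa12, which lies outside the rule for named genes, was higher by 0.54 (adjusted p = 0.0341). Ndufb8 overlapped between the groups and the other 2 did not. The call of Ndufaf3 ended without wild-type array 2 or lymphoma 4 or 5 (adjusted p up to 0.0635) and that of Ndufa12 without wild-type array 3 or any lymphoma (0.0581 to 0.0785). With the mean of all its probe sets Ndufa12 differed by 0.33 (adjusted p = 0.108). The call of Ndufb8 ended without any single array except wild-type array 1 (0.0527 to 0.11) and with quantile normalization (0.0611).

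In each of the other complexes 1 or 2 members rose. Uqcr10, a small subunit of complex III, read 11.68 to 12.59 (median 11.98) in wild-type cells and 12.85, 13.10, 12.99, 13.31 and 12.91 in lymphomas, without overlap (log2 0.98, SE 0.169, adjusted p = 0.00353). With the mean of its 3 probe sets it was higher by 1.11, with an adjusted p of 0.0729, the highest of its alternatives (the lowest was 0.00157). Sdhd, the complex II anchor that fell in Snf5 Ezh2-deficient MEFs, read 11.08 to 11.97 (median 11.50) against 12.35, 11.85, 12.05, 12.14 and 12.58 (0.67, SE 0.19, adjusted p = 0.0356), with overlap. Its call ended without wild-type array 1, 2 or 5 or lymphoma 1, 3, 4 or 5 (adjusted p 0.0533 to 0.0902), and with median centring (0.0618).

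In complex V the risers were Atp5g1 and Atp5a1. Atp5g1 encodes subunit c, which forms the rotating ring of the ATP synthase, and read 11.95 to 13.01 (median 12.78) in wild-type cells and 13.36, 13.53, 13.27, 13.53 and 13.23 in lymphomas (log2 0.74, SE 0.202, adjusted p = 0.0311). Atp5g2 and Atp5g3 encode the same protein after import, and they differed by 0.66 (adjusted p = 0.37) and 0.21 (adjusted p = 0.177). Atp5a1 read 12.57 to 13.24 (median 13.10) against 13.44, 13.38, 13.43, 13.56 and 13.63 (0.46, SE 0.139, adjusted p = 0.0456). Every lymphoma array lay above every wild-type array for Atp5g1 and Atp5a1. Both calls were lost when any single lymphoma was left out, and also without wild-type array 4 or 6 for Atp5g1 (adjusted p 0.0528 to 0.0772) and without wild-type array 2, 3 or 4 for Atp5a1 (0.0606 to 0.107). Atp5a1 also lost its call with median centring (adjusted p = 0.0596) and with the mean of its 3 probe sets (log2 0.22, adjusted p = 0.165), of which the other 2 read 0.08 and 0.13. The number of members called higher was 5 to 7 without any single lymphoma and 7 without wild-type array 2.

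Leaving out wild-type T cell arrays that stood apart changed which members were called. Without arrays 1 and 6, 11 members were higher and 3 lower, where 13.2% of all genes were called higher and 13.2% lower. The median was then 0.23 over the members and -0.105 over all genes. The lower ones were Ndufa6, a complex I subunit (log2 -0.81, adjusted p = 0.0446), the complex IV subunit Cox7c (-0.79, adjusted p = 0.0313) and Cox7a2l, a factor that joins complexes III and IV (-0.67, adjusted p = 0.019). Against arrays 3 and 4 alone, 9 members were higher and 4 lower, where 11.8% and 13.9% of all genes were called. The median was 0.04 over the members and -0.109 over all genes, and 48 of 84 members lay above 0. Ndufa6 then differed by -1.16, Cox7c by -1.04, Cox7a2l by -0.84 and Atp5mpl, a small protein of the ATP synthase, by -0.44. The 4 genes were chosen after their values were seen, and whether the Cox7c probe set reports its main transcript was not checked. Cox7a1, Ndufb1, Ndufaf7, Ndufab1, Ndufb8, Ndufa12, Uqcr10 and Atp5g1 were higher in all 3 fits. Of the remaining risers, Sdhd differed by 0.66 (adjusted p = 0.0582) without arrays 1 and 6, and against arrays 3 and 4 Sdhd differed by 0.32 (adjusted p = 0.297), Ndufaf3 by 0.49 (adjusted p = 0.0906) and Atp5a1 by 0.39 (adjusted p = 0.0646). Arrays 3 and 4 also stood apart from the lymphomas in other markers, with myeloid lists of 6.06 and 6.26 against 8.50 to 10.51 and cycling lists of 8.47 and 8.69 against 11.76 to 12.07. The part of these in the 8 calls was not tested.

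The changes in Snf5 Ezh2-deficient MEFs and in the lymphomas, which have separate controls, were set side by side. Ndufaf7 and Ndufb1 were higher in both, which is 18.2% of the 11 members that rose in each. Over all genes, 13.3% of those that rose in the MEFs also rose in the lymphomas, and 19.2% the other way round. Ndufaf3 and Sdhd were lower in the MEFs and higher in the lymphomas, which is 20% of the members that fell in the MEFs and 18.2% of those that rose in the lymphomas, where the shares over all genes were 11.9% and 18.7%. The shares of the members rest on 2 genes each. ND5, a complex I subunit encoded by mitochondrial DNA and picked after its values were seen, read 12.08 to 12.84 in the first and 11.99 to 12.57 in the second MEF set and 12.92 to 13.61 on the T cell arrays. It did not pass in any comparison (log2 0.27, -0.08 and -0.155, adjusted p = 0.259, 0.734 and 0.48).

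Other mitochondrial genes were counted from separate lists. Over all genes, 1.02% were called higher and 2.47% lower in Ezh2-deficient MEFs. The shares were 13.2% and 14.3% in Snf5 Ezh2-deficient MEFs and 9.13% and 7.71% in the lymphomas. The largest was the mitochondrial ribosome, which translates the subunits encoded by mitochondrial DNA, with 74 genes measured. In Ezh2-deficient MEFs 1 of the ribosome genes rose and 4 fell (1.35% and 5.41%), 70 lay below 0 and the median was -0.12. Mrpl19 rose by 0.71 (8.21 ± 0.0936 to 8.92 ± 0.0786, SD, n = 3 each, adjusted p = 0.0321), while Mrps6 changed by -0.45 and Mrpl18 by -0.39. The calls of Mrps6 and Mrpl18 ended without any 1 of the 6 arrays (adjusted p 0.0536 to 0.162 and 0.0626 to 0.155), and that of Mrpl19 without any except Ezh2-deficient array 2 (0.0576 to 0.117). Mrps6 and Mrpl18 also lost their calls with quantile normalization (0.0784 and 0.065), and Mrps6 with median centring (0.0551) and with this set fitted alone (0.0696). In Snf5 Ezh2-deficient MEFs 3 rose and 17 fell (4.05% and 23%, median -0.10). Mrps22 changed by -0.62 (adjusted p = 0.000258) and Mrps28 by -0.40 (adjusted p = 0.00899), while Mrpl45 rose by 0.47 (adjusted p = 0.000336) and Mrpl16 by 0.21 (adjusted p = 0.021). The call of Mrpl16 ended without wild-type array 2 or 3 or mutant array 1 or 3 (0.0578 to 0.0782).

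In the lymphomas 20 of the 74 mitochondrial ribosome genes rose and 0 fell, with a median of 0.42 and 69 above 0. This is 27% called higher, beside 9.13% of all genes called higher and 7.71% called lower. Mrpl45 rose by 1.84 (8.86 ± 0.883, n = 6, to 10.7 ± 0.202, n = 5, SD, adjusted p = 0.00851) and Mrpl1 by 1.80 (adjusted p = 0.000524). Without wild-type arrays 1 and 6, 18 were higher and 1 lower (median 0.41), where 13.2% of all genes were called higher and 13.2% lower. Against arrays 3 and 4 alone 11 were higher and 1 lower (median 0.21), where 11.8% and 13.9% of all genes were called.

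The list of assembly factors and electron carriers had 30 measured genes. In Ezh2-deficient MEFs 0 passed limma's test (0 higher and 10 lower at an unadjusted p under 0.05, median -0.09). In Snf5 Ezh2-deficient MEFs 4 rose and 7 fell (13.3% and 23.3%, beside 13.2% and 14.3% of all genes). Sdhaf1 and Sdhaf4, which help to assemble complex II, rose by 0.44 (adjusted p = 0.000775) and 0.35 (adjusted p = 0.0141). Cox18, which inserts a complex IV subunit into the membrane, changed by -0.73 (adjusted p = 0.000803). Uqcc3, a complex III assembly factor, changed by -0.54 (adjusted p = 0.000225). In the lymphomas 4 rose and 0 fell (median 0.39), which is 13.3% called higher, beside 9.13% of all genes. Without wild-type arrays 1 and 6, 5 were higher and 1 lower (median 0.39), where 13.2% of all genes were called higher and 13.2% lower. Against arrays 3 and 4 alone 4 were higher and 1 lower (median 0.18), where 11.8% and 13.9% of all genes were called. Sdhaf1 rose again, from 9.92 ± 0.453 (n = 6) to 11.7 ± 0.285 (SD, n = 5, log2 1.77, adjusted p = 0.000755), and Etfb, a subunit of the flavoprotein that brings electrons from fatty acid oxidation, by 1.09 (adjusted p = 0.013).

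Of 20 measured genes of the tricarboxylic acid cycle and pyruvate dehydrogenase, 0 passed limma's test in Ezh2-deficient MEFs (1 higher and 5 lower at an unadjusted p under 0.05, median -0.09). In Snf5 Ezh2-deficient MEFs 0 rose and 5 fell (1 and 7 at an unadjusted p under 0.05). The 5 are 25% of the list, beside 14.3% of all genes called lower. Dlat, the acetyltransferase of pyruvate dehydrogenase, changed by -0.72 (adjusted p = 5e-05) and Idh3a, a catalytic subunit of isocitrate dehydrogenase, by -0.58 (adjusted p = 0.000189). In the lymphomas 5 rose and 2 fell (25% and 10%, beside 9.13% and 7.71% of all genes). Without wild-type arrays 1 and 6 the counts were 4 and 3, where 13.2% of all genes were called higher and 13.2% lower. Against arrays 3 and 4 alone they were 4 and 2, where 11.8% and 13.9% of all genes were called. Among the kinases that inhibit pyruvate dehydrogenase, Pdk3 rose by 1.92 (adjusted p = 0.00545) and Pdk1 changed by -1.83 (adjusted p = 0.0219). Suclg2, a subunit of succinyl-CoA ligase, rose by 1.13 (adjusted p = 0.0179), and Pdha1, the substrate of these kinases, changed by -0.64 (adjusted p = 0.0152). The call of Pdk1 ended without lymphoma 4 or 5 (adjusted p 0.055 to 0.058).

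Among 16 regulators of mitochondrial DNA and biogenesis, 0 passed limma's test in Ezh2-deficient MEFs (0 higher and 2 lower at an unadjusted p under 0.05) and 0 in the lymphomas (1 higher and 1 lower, median 0.10). Without wild-type T cell arrays 1 and 6 the lymphomas had 1 called higher and 1 lower (median 0.09), beside 13.2% and 13.2% of all genes. Against arrays 3 and 4 alone it was again 1 and 1 (median -0.08), beside 11.8% and 13.9% of all genes. In Snf5 Ezh2-deficient MEFs 4 rose and 2 fell (25% and 12.5%, beside 13.2% and 14.3% of all genes). Tfb1m, which methylates mitochondrial ribosomal RNA, rose by 0.42 (adjusted p = 0.00173) and Esrra, a nuclear receptor that drives mitochondrial genes, by 0.27 (adjusted p = 0.0216). Polg, the mitochondrial DNA polymerase, changed by -0.28 (adjusted p = 0.00696) and Mterf3, a repressor of mitochondrial transcription, by -0.22 (adjusted p = 0.032). The call of Esrra ended without wild-type array 3 or mutant array 2 (adjusted p 0.0778 to 0.088) and that of Mterf3 without any wild-type array or mutant array 1 or 2 (0.0501 to 0.119).

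The last list held 8 measured carriers and porins. In Ezh2-deficient MEFs 0 passed limma's test (0 higher and 1 lower at an unadjusted p under 0.05). In Snf5 Ezh2-deficient MEFs the porins Vdac2 (log2 -0.28, adjusted p = 0.0261) and Vdac3 (-0.27, adjusted p = 0.00595) fell, 25% of the list beside 14.3% of all genes. The call of Vdac2 ended without any wild-type array or mutant array 2 or 3 (adjusted p 0.0532 to 0.093) and with quantile normalization (0.0628). In the lymphomas Ckmt1, the mitochondrial creatine kinase of non-muscle tissue, rose by 3.94 (5.18 ± 1.01, n = 6, to 9.12 ± 0.752, n = 5, SD, adjusted p = 0.000663), and 3 wild-type arrays lay in the lowest 25% of values. Without wild-type arrays 1 and 6, 1 gene of this list was called higher and 1 lower, beside 13.2% and 13.2% of all genes. Against arrays 3 and 4 alone it was 1 and 0, beside 11.8% and 13.9% of all genes.

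**Figure D5:**
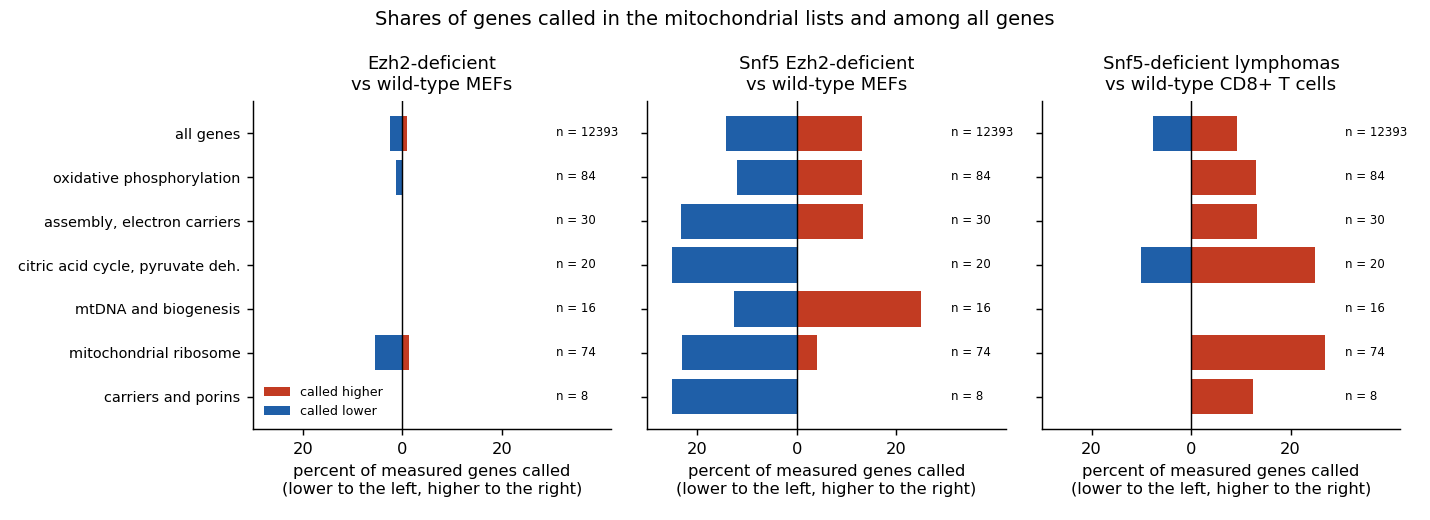
Percent of measured genes called higher (red, to the right) or lower (blue, to the left) among all genes, the 84 members and the 5 other mitochondrial lists in the 3 comparisons, with the number of measured genes. In lymphomas 20 of 74 mitochondrial ribosome genes are called higher and 0 lower, and in Snf5 Ezh2-deficient MEFs 3 are called higher and 17 lower. Over all genes the shares are 9.13% and 7.71% in lymphomas and 13.2% and 14.3% in Snf5 Ezh2-deficient MEFs.

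Several probe sets named the same member in 45 cases. In Snf5 Ezh2-deficient MEFs 10 of these 45 members were called through the representative probe set. In 6 of the 10 all probe sets passed in the same direction, among them Ndufb6, Ndufb2, Ndufa5 and Ndufa3. Some members not called there had another probe set called lower. These were Ndufa12 (log2 -0.30, adjusted p = 0.00714) and Ndufs7 (-0.18, adjusted p = 0.0282) of complex I and Uqcrb of complex III (-0.21, adjusted p = 0.045). In the lymphomas 5 were called and in 0 of them did all probe sets pass. No member had probe sets called in opposite directions in any comparison. Among the representative probe sets 11 had the suffix _s_at and 8 the suffix _x_at, which mark probes shared with similar transcripts, and the values of such members (Ndufab1, Ndufaf7, Ndufa13, Ndufc2, Cox5b, Cox8a, Ndufa3 and Ndufa12 among those called) could hold signal from near-identical copies.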

How the data were processed

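RNA was extracted with Trizol and Qiagen RNeasy columns and the arrays were summarised by RMA, per the labels. No software version is stated in these sources. The authors deposited RMA values as linear intensity, where the planned tests had assumed log2 values, so log2 was taken here. Of 22690 probe sets, 64 controls were left out. Of the others, 20380 name 1 gene, 691 several and 1555 none.

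The second set of wild-type MEF arrays repeated the first: same-numbered arrays differed by an SD of 0.0219 to 0.0241 (log2, 5732 probe sets with a mean log2 above 9) and other pairs by 0.135 to 0.151. The second set was shifted by the offset of its controls, the controls were averaged, and 9 MEF arrays (6 residual degrees of freedom) and 11 T cell arrays (9) were fitted with limma 3.58.1 in R 4.3.3. P-values were adjusted by Benjamini-Hochberg over 22626 probe sets, with a threshold of 0.05. The median standard error of a log2 change was 0.0771 in MEFs and 0.236 in T cells. The number of arrays limits the precision. The scripts were tested on simulated data.

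Members and lists were chosen with earlier results of these data known. Per complex and comparison, the called members with the 3 largest rises and 3 largest falls are named, or, where 0 were called, the one of smallest p, together with all tissue isoforms. Of the other lists, the 2 largest rises and falls are named. Other called members were added after their values were seen. Alternatives were another eBayes prior, quantile normalization, median centring, a filter on dim probe sets, the mean of a gene's probe sets, a replicate block, each MEF set alone and leaving out each array. The main tests took no pairing by replicate number, and a check of such pairing is given with the alternatives. Promoters are from RefSeq on GRCm38.p6.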

Additional observations from a re-analysis of the deposited data

Results flagged for a closer look

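Among 34 groups of 4 to 10 arrays examined for the members named in T cells, 1 held an array apart from the others by Dixon's test, which chance gives in about 1 of 20 groups. Ndufaf3 read 11.57 on lymphoma array 4, against 11.12 to 11.21 on the other lymphoma arrays.

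The changes in the MEF lines differed for 15 of the members named, tested as Snf5 Ezh2-deficient minus Ezh2-deficient in limma. The difference on the log2 scale was 1.05 for Cox6b2, 0.70 for Ndufaf7, 0.64 for Ndufb6, 0.48 for Ndufb2, 0.43 for Ndufaf5, 0.42 for Atp5l and 0.41 for Ndufa13. It was 0.37 for Ndufb1, 0.25 for Cox5b, 0.23 for Ndufa8, 0.23 for Cox8a, 0.21 for Ndufc2 and 0.19 for Atp5a1, and it was -0.22 for Ndufa1 and -0.21 for Ndufa3. Each difference above 0 means a lower value in Ezh2-deficient MEFs. Of these 15 members only Ndufaf5 was called against wild type in Ezh2-deficient MEFs, and Atp5a1 was not called against wild type in either line.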

How the results depend on the processing

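No value changed sign after passing the threshold. In Ezh2-deficient MEFs 0 members were called higher under each array left out, and 1 to 2 lower; with the intensity-dependent prior 2 were called lower. In Snf5 Ezh2-deficient MEFs 9 to 10 were called higher and 7 to 11 lower with an array left out. Between the mutant lines 15 to 16 were called higher and 0 to 5 lower with an array left out, and the lower calls numbered 4 with median centring and 5 with the mean of all probe sets. In lymphomas 5 to 10 were called higher and 0 lower with an array left out, and 7 higher with the mean of all probe sets. Without the wild-type CD8+ arrays chosen after seeing the data, 3 (arrays 1 and 6) and 4 (arrays 1, 2, 5 and 6) were called lower. The cause of these moves was not tested.

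Same-numbered samples deviated together with correlations of -0.0281 to 0.149 (Ezh2), -0.0405 to 0.0283 (Snf5 Ezh2) and 0.0799 to 0.312 (T cells). All those of T cells lay above 0, so the check does not settle whether the numbers mark pairs. With a replicate block, 0 members were called higher and 1 lower in Ezh2-deficient MEFs, 9 and 9 in Snf5 Ezh2-deficient MEFs, 15 and 2 between the mutant lines, and 7 and 0 in lymphomas. Under the block the calls of Ndufs1, Cox8a and Ndufa8 in Snf5 Ezh2-deficient MEFs and of Atp5a1, Ndufa12, Sdhd and Atp5g1 in lymphomas were among those lost (adjusted p 0.0655, 0.0706, 0.0529, 0.0874, 0.05, 0.0935 and 0.0589). Best matches were to the same number in 2 of 3, 1 of 3 and 3 of 5 samples.

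Arrays give no count of molecules, and changes of members near the lowest 25% of values, Cox7a1 and Cox7c in MEFs, are bounded by the background signal.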
